A study of Mus musculus with 66 samples.

Results

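Cell cycle and DNA replication genes were followed in the cerebellum of C57BL/6 mice from the end of the suckling period to old age. The 38 genes were chosen by symbol alone. A symbol had to begin like that of a cyclin (Ccn, a letter from a to l and a digit), a cyclin-dependent kinase (Cdk), a Cdc gene other than Cdc42 and its relatives or a Mcm helicase subunit. Also taken were those of an origin recognition subunit (Orc), a clamp loader subunit (Rfc), a subunit of DNA polymerase alpha, delta or epsilon (Pol) or a ribonucleotide reductase subunit (Rrm), together with Nasp and Pcna. The 38 genes thus include partners with such symbols (Ccnb1ip1, Cdk2ap2 and Mcm3ap), but not cyclins whose symbol lacks the digit. They were read by 50 of the 4788 probes that carried 1 gene symbol, and the array measured 3905 genes in this way. The other probes carried several symbols (212) or none (3448) and were not used. RNA of 66 mice, 31 males and 35 females, was hybridised to cDNA filters, 1 mouse per filter. Mice fed ad libitum (AL) numbered 5 at 17 to 21 days, 5 at 33 to 44 days, 10 in the 6 month, 10 in the 16 month and 9 in the 24 month group. Mice kept on caloric restriction (CR), which received unlimited feed at first and then a fortified diet reduced in steps, numbered 9 at 6 months, 10 at 16 months and 8 at 24 months. Adults of the 3 ages were 169 to 194, 472 to 499 and 673 to 743 days old. In the 24 month group all 3 CR males were 673 days old, whereas the AL mice were 704 to 743 days old. Comparisons of the diets that use these males thus also compare ages, and the 2 cannot be told apart there. No genetic change is named in the labels, every group held both sexes, and the cerebellum was measured as bulk tissue, so that fewer cells of a type and less RNA per cell cannot be told apart.

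In the cerebellum, dividing cells are mostly young ones. Precursors of the granule neurons divide in the external granular layer under the control of Sonic hedgehog from Purkinje cells and use D-type cyclins, and this layer disappears around weaning, after which few cells divide. In a dividing cell the origin recognition complex and Cdc6 load the Mcm helicase onto DNA, the sliding clamp Pcna and its loader Rfc carry the delta and epsilon polymerases along the fork, and ribonucleotide reductase supplies the building blocks. Cyclins with their kinases time these steps, Cdc25 phosphatases switch the kinases on, and the anaphase-promoting complex ends mitosis by marking cyclins for destruction. Many of these genes are switched on together by E2F transcription factors. Several members are named after this machinery but work elsewhere, instead or in addition: Cdk7, Cdk8, Cdk12 and Cdk13 act in transcription, Cdc5l in splicing and Cdc37 with the chaperone Hsp90.

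E2F motifs in the promoters are a property that the choice by symbol did not use. Promoter windows from 250 bases before to 50 after the gene start were taken from a RefSeq table (build GRCm38.p6), which matched 35 of the 38 members in 42 windows. The members without one were Ccna2, Ccnd2 and Cdc25c. One of the E2F motifs TTTCGCGC, TTTGGCGC and TTTCCCGC, read on either strand, stood in 26.2% of the member windows and in 1.84% of all 32851 windows of the table. The CCAAT box was found in 54.8% against 37.4%, and the cell cycle homology motif TTTGAA in 9.52% against 17.9%. The first 2 E2F motifs can overlap the reverse of each other, as they do in Mcm5. The 10 carriers were Cdc25a, Cdc6, Cdk1, Mcm3, Mcm5, Orc1, Pold1, Pold3, Pole4 and Rfc3. A stretch of 5 of these promoters is shown because the genes cover the chain from licensing to mitosis. Each ends before the gene start, is read 5′ to 3′ on the strand of the gene, and has the E2F letters in capitals.
Orc1 (chr4:108579387-108579453, plus strand): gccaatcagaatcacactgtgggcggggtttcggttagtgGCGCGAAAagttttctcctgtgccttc
Cdc6 (chr11:98907973-98908060, plus strand): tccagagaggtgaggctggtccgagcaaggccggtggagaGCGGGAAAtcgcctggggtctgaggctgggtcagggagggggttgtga
Mcm5 (chr8:75109316-75109407, plus strand): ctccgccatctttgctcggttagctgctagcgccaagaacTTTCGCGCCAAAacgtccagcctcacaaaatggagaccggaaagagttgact
Cdc25a (chr9:109875472-109875559, plus strand): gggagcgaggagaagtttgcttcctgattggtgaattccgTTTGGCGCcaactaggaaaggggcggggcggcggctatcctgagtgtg
Cdk1 (chr10:69352996-69353083, minus strand): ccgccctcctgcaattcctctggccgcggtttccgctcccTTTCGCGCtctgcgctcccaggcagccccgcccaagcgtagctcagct
In Orc1 and Cdc6 the motif lies on the opposite strand, and in Mcm5 the capitals hold a motif on each strand. These letters are a description of the promoters and do not show binding by E2F.

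Levels are z scores, the distance of a probe from the mean of its array in SDs of that array, and they order mice for 1 gene but not genes against each other. The study's own selection kept only genes whose mean over the 2 conditions compared was above 0, to leave out low signals. Over all arrays 15 of the 38 members and 1691 of the 3905 genes had a mean z above 0. Cdc27, Nasp, Pold3, Orc1, Ccnd2 and Ccna2 were among the members below it. The arrays fell into sets by their running number, 24 numbered 1 to 24 (early) and 42 numbered 25 to 67 (late), and 54.2% of all 3905 genes differed between the sets at an adjusted p under 0.05 (limma, with the groups of diet, sex and age in the same fit). Of the members 22 of 38 did, 20 lower and 2 higher in late arrays. The labels give the running numbers but name no such sets. The sets were known from earlier results of these data, so these shares describe the split and do not test it independently. Cdk13, a kinase of RNA polymerase II, stood at a mean of -2.54 in early and -0.744 in late arrays, a difference of 1.82 ± 0.159 (SE; adjusted p = 3.54e-15), and only 68 of the 3905 genes had a larger one. Ccna2, the cyclin of S phase and early mitosis, came next at -0.519 ± 0.0613. Every adult group had arrays of both sets, whereas the early arrays of the 17 to 21 day group were both female and those of the 33 to 44 day group both male. For this reason the set was a term of the fit, and levels are given after the early arrays were moved by the fitted difference, called set-adjusted z.

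The values of 7 arrays correlated poorly with those of their set (median r under 0.9 over the rest of the set). They were from AL 6 months (2), CR 6 months (1), CR 16 months (3) and CR 24 months (1). On 2 of them, male 2 and female 2 of CR 16 months, many low values fell at a single place. Probes are printed in 16 by 24 zones of 22 positions, as inferred from the order of the probe numbers, and position 7 of the zones holds Mcm3, Pold2, Ccnd2 and 1 of the 2 Orc4 probes. On the array of male 2, 335 of the 384 probes at position 7 (87.2%) lay more than 1 z below their mean in the set, against 4.62% of all probes, and on that of female 2 it was 296 of 384 (77.1%) against 4.19%. Position 8 followed with 12.2% and 11.5%. Mcm3 read -1.56 and -2.71 z on these 2 arrays and 0.05 to 0.98 on the other 64. Pold2 read -2.55 and -0.95 against -0.48 to 0.69. Many of the differences below that use these groups are also given without the 7 arrays.

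**Figure D1:**
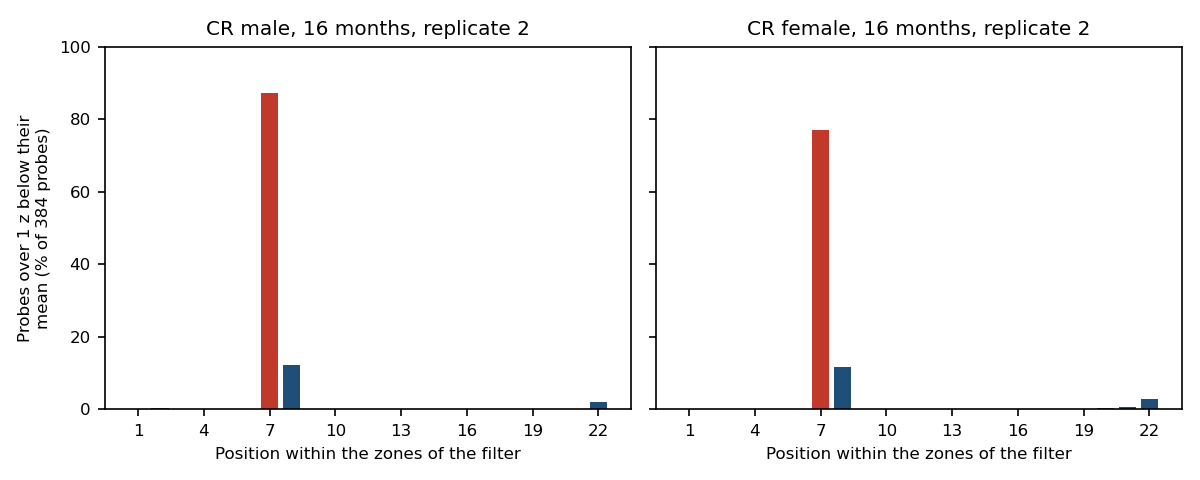
Share of probes lying more than 1 z below their mean in the array set (vertical axis, percent of the 384 probes of a position) at each of the 22 positions within the zones of the filter (horizontal axis), for male 2 and female 2 of CR 16 months. Position 7 (red) stands at 87.2% and 77.1%, position 8 at 12.2% and 11.5%.

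Development and ageing were compared in 16 contrasts of age, diet and sex in 1 limma fit, and no cell cycle or replication gene passed in any of them. In each contrast 0 of 38 members and 0 of 3905 genes (0% called) had an adjusted p under 0.05, and the smallest adjusted p of a member was 0.145. Values with an unadjusted p under 0.05 are therefore listed only as the largest readings. Between 17 to 21 and 33 to 44 days there were 2 such members, against 5.69% of all genes. From 33 to 44 days to 6 months there were 7 against 10.8%, 3 of them higher (5.99% of genes) and 4 lower (4.84%), and without female 2 of 33 to 44 days there was 1. Over all genes the count of 423 ranged from 199 to 511 when 1 mouse was left out. From 17 to 21 days to 6 months there were 2 against 2.71%, with 0 to 5 when 1 mouse was left out (0 without male 1 of 17 to 21 days, 5 without female 2 of 6 months). The count of 106 over all genes ranged from 31 to 199, the highest without the same female 2. In the mean of the AL adults against 17 to 21 days there was 1 against 3.59%. The median difference of the 38 members was 0.0119 z for the first step, -0.0324 for the second and 0.00285 from 17 to 21 days to the adults, beside 0.00667, 0.0203 and 0.0101 for all genes. Regardless of sign, the median difference was 0.104 z for the members and 0.112 z for all genes in the first step. The 95% interval of a member extended (median) 0.306 z from its value in the first step, 0.263 z from 17 to 21 days to 6 months and 0.233 z for the adults. Over the members these distances ran from 0.144 to 0.735 z in the first step and from 0.110 to 0.562 z for the adults.

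**Figure D2:**
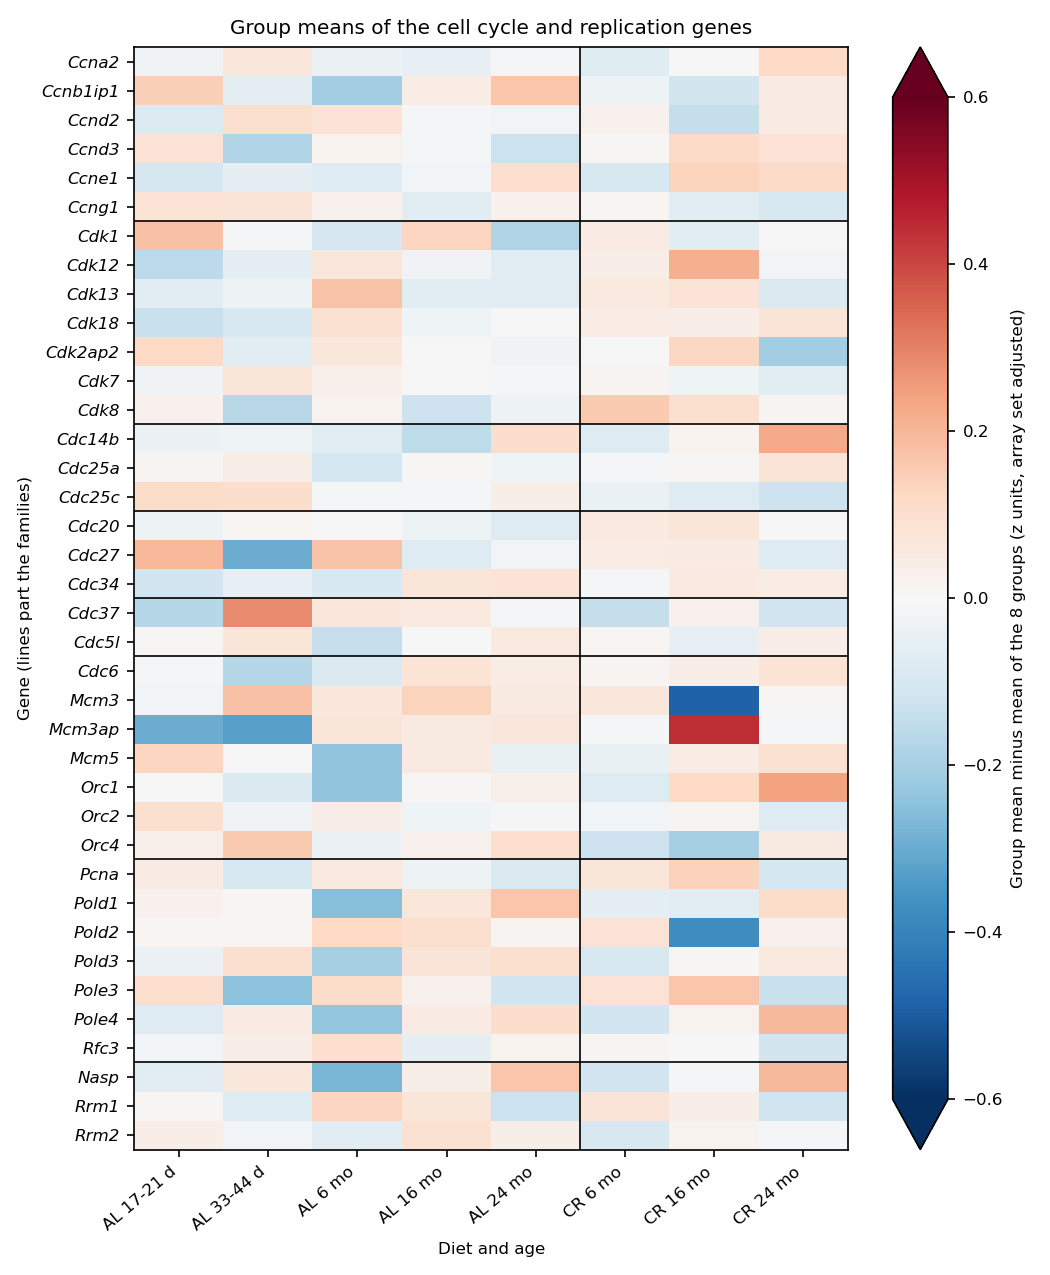
Mean set-adjusted z of each of the 38 genes (rows, ordered by family) in the 8 groups of diet and age (columns), as the distance from the mean of the 8 groups in z units. Most cells are pale, and the darkest are Mcm3, Pold2 and Mcm3ap in CR 16 months, with 3 arrays that stand apart, and Mcm3ap and Cdc27 in AL 33 to 44 days.

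Origin licensing and the helicase (7 genes) gave no ordered course from young to old. Orc1, the largest origin recognition subunit, stood at -1.09 ± 0.298 z (SD, n = 5) at 17 to 21 days, -1.18 ± 0.186 (n = 5) at 33 to 44 days, -1.33 ± 0.321 (n = 10) at 6 months, -1.08 ± 0.353 (n = 10) at 16 months and -1.06 ± 0.275 (n = 9) at 24 months, and all neighbouring groups overlapped. Orc2, another subunit, had the smallest spread of the 38 members within groups (residual SD 0.0934) and stood at 0.207 ± 0.0779 (n = 5) at 17 to 21 days against 0.111 ± 0.0973 (n = 29) in AL adults. The difference for Orc2 was -0.0994 ± 0.0547 (SE; adjusted p = 0.937), with 6 of 29 adults above the median of the young. Its 2 probes moved against each other over the arrays (residual r = -0.606, n = 66), which shrank to -0.0412 after the correction for place described below. Orc4, also of the complex, stood between -0.810 and -0.619 in the means of the AL groups.

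Cdc6, which loads the helicase with the complex, had group means from -0.970 (33 to 44 days) to -0.721 (16 months) in AL mice. Mcm3 stood at 0.690 ± 0.247 (n = 5), 0.884 ± 0.0744 (n = 5), 0.770 ± 0.170 (n = 10), 0.842 ± 0.139 (n = 10) and 0.760 ± 0.111 (n = 9) in the 5 AL groups from youngest to oldest. Its youngest mice formed a low pair at 0.41 and 0.43 and 3 between 0.85 and 0.886, all other AL mice lying between 0.5 and 1.13. Mcm5, which together with Mcm3 is part of the helicase ring, read -0.342, -0.272, -0.07, -0.03 and 0.11 in the 5 mice of 17 to 21 days. At 6 months its lowest, median and highest values were -1.49, -0.362 and 0.15, a difference of -0.387 ± 0.199 (adjusted p = 0.946) that was -0.137 without the arrays that stand apart. Mcm3ap, a partner of Mcm3 that also works in mRNA export, ranged from -2.9 to -1.1 among the 5 mice of 33 to 44 days.

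At the replication fork (7 genes) the clamp Pcna stood at 0.318 ± 0.0669 (n = 5) at 17 to 21 days, 0.172 ± 0.213 (n = 5) at 33 to 44 days, 0.326 ± 0.183 (n = 10) at 6 months, 0.237 ± 0.155 (n = 10) at 16 months and 0.183 ± 0.127 (n = 9) at 24 months. The 5 youngest mice, from 0.22 to 0.39, lay inside the range of the 6 month group, 0.0498 to 0.69. Rfc3, of its loader, stayed between -0.125 and 0.0353 in the means of the AL groups. Pole3, a histone-fold subunit of polymerase epsilon, read -0.03, -0.0245, 0.1, 0.176 and 0.21 at 17 to 21 days and -0.63, -0.46, -0.254, 0.01 and 0.0355 at 33 to 44 days, so that 2 of the older mice lay among the younger ones. The difference for Pole3 was -0.346 ± 0.157 (adjusted p = 0.841). From there to 6 months it was 0.366 ± 0.135 (adjusted p = 0.357), a contrast that shares the 33 to 44 day mice, which was 0.284 without the arrays that stand apart and -0.019 in early arrays alone. The early arrays of 33 to 44 days were both male. Leaving out female 2 of 33 to 44 days brought the 2 values to -0.186 and 0.206. Pold3, a subunit of polymerase delta, differed by -0.301 ± 0.116 from 33 to 44 days to 6 months (adjusted p = 0.357), or -0.169 without the arrays that stand apart, and the histone chaperone Nasp by -0.350 ± 0.149 (adjusted p = 0.4), or -0.144.

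Among the genes of mitotic exit, Cdc27, a core subunit of the anaphase-promoting complex, had the lowest p of the members in both steps around 33 to 44 days. Cdc27 had a mean z of -1.25 over all arrays, below the floor of 0 in the study's own selection. It read -1.33, -1.32, -1.25, -1.19 and -0.928 z at 17 to 21 days and -2.06, -1.85, -1.74, -1.43 and -1.42 at 33 to 44 days. After the set adjustment, which moved the early arrays by -0.388 z for this gene, every mouse of 33 to 44 days was lower. In the deposited values of both sets together the 2 groups overlapped. How many of all genes were parted in this way is not given here. The means of -1.20 ± 0.164 and -1.70 ± 0.277 (n = 5 each) differed by -0.490 ± 0.148 (95% interval -0.787 to -0.193; adjusted p = 0.698), and the difference was -0.315 in early and -0.505 in late arrays alone. Among the early arrays the mice of 17 to 21 days were both female and those of 33 to 44 days both male. At 6 months the lowest, median and highest values of Cdc27 were -1.47, -1.24 and -1.0, and the difference from the same 33 to 44 day mice was 0.475 ± 0.128 (adjusted p = 0.203), with 10 of 10 mice above their median, or 0.422 without the arrays that stand apart. It ranged from 0.317 to 0.632 when 1 mouse was left out. Cdc20, which activates the complex, and Cdc34, a ubiquitin-conjugating enzyme, differed by 0.0475 ± 0.114 and 0.0558 ± 0.120 in the first step. In the mean of the adults Cdc34 stood 0.141 ± 0.0919 above 17 to 21 days (adjusted p = 0.937), with 22 of 29 mice above the median of the young.

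Of the kinases, Cdk1, which drives entry into mitosis, was the 1 member with an unadjusted p under 0.05 in the mean of the adults against 17 to 21 days. The 5 youngest mice read 0.997, 1.10, 1.39, 1.48 and 1.51, the first 2 from early and the others from late arrays. In the 29 AL adults the mean was 1.07 ± 0.275 against 1.30 ± 0.233 in these 5, a difference of -0.259 ± 0.127 (adjusted p = 0.937), with 4 of 29 above the median of the young. In early arrays alone the sign turned (0.0187), in late arrays it was -0.382, and without the arrays that stand apart it was -0.249. Cdk12, a kinase of RNA polymerase II, differed by 0.232 ± 0.105 at 6 months (adjusted p = 0.946), with 10 of 10 mice above the median of 17 to 21 days, or 0.180 without the arrays that stand apart. The D-type cyclin Ccnd2, used by granule cell precursors, stood at -1.19 ± 0.265 (n = 5) at 17 to 21 days, -1.01 ± 0.124 (n = 5) at 33 to 44 days and -1.02 ± 0.236 (n = 10) at 6 months, so that the mean of the youngest group was the lowest of the 3 and the groups overlapped. Ccnd3, its relative, stood at -0.345 ± 0.160, -0.613 ± 0.287 and -0.414 ± 0.200 in the same groups, and its first step of -0.258 ± 0.157 (adjusted p = 0.891) was 0.023 in early arrays alone. The early arrays of 17 to 21 days were both female and those of 33 to 44 days both male.

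The remaining genes of these families are given by their means in the AL groups. The group means of Ccna2 lay between -1.66 and -1.55 z, those of Ccne1, the cyclin of the start of S phase, between -1.70 and -1.5, and those of Ccng1, a target of p53, between -0.171 and -0.0239. Ccnb1ip1, a ubiquitin ligase that binds cyclin B, stood at 1.30 at 17 to 21 days and 0.946 at 6 months, a difference of -0.375 ± 0.201 (adjusted p = 0.946), or -0.196 without the arrays that stand apart. Cdk7 lay between 0.134 and 0.228, Cdk8 between -1.34 and -1.15, Cdk13 between -0.812 and -0.571 and Cdk18 between 1.14 and 1.37. The phosphatases Cdc25a, Cdc25c and Cdc14b lay between -0.871 and -0.722, between 0.0866 and 0.205 and between -1.61 and -1.35. Cdc5l lay between -0.0962 and 0.116. Cdc37 read higher at 33 to 44 days (0.153 ± 0.552) than at 17 to 21 days (-0.299 ± 0.430, n = 5 each), a difference of 0.429 ± 0.215 (adjusted p = 0.875), which was 0.144 without male 1 of 17 to 21 days.

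**Figure D3:**
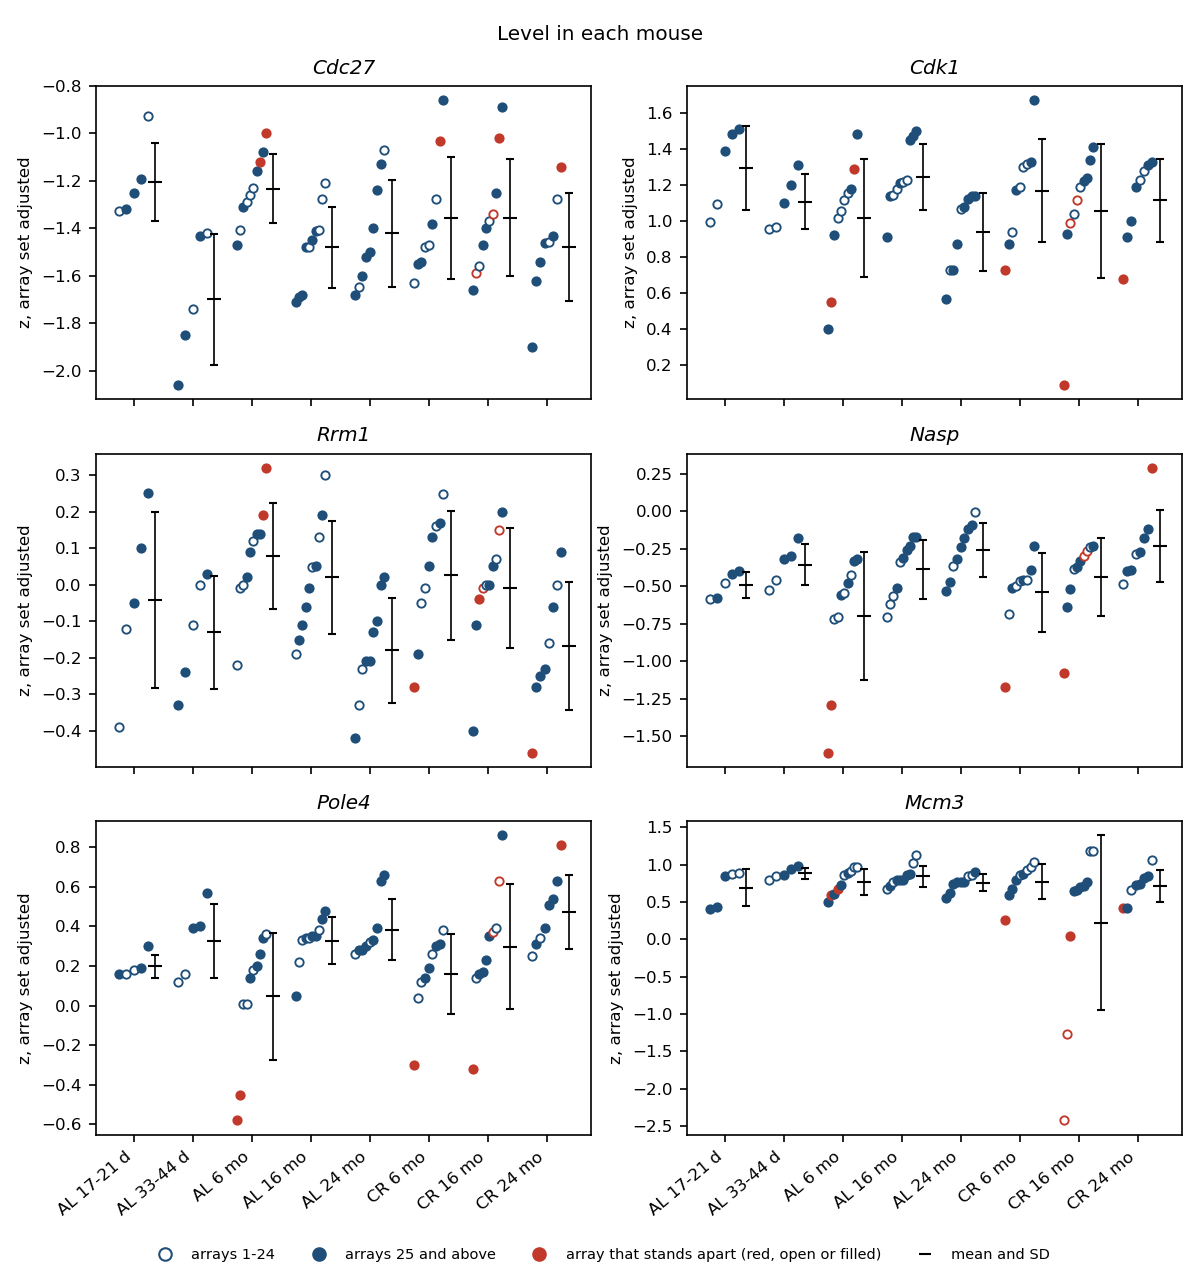
Set-adjusted z (vertical axis) of Cdc27, Cdk1, Rrm1, Nasp, Pole4 and Mcm3 in each mouse, by diet and age (horizontal axis); open points are arrays 1 to 24, filled points later arrays, red points the 7 arrays that stand apart, and bars the mean and SD. In these set-adjusted values, though not in the deposited ones, Cdc27 at 33 to 44 days lies below all mice of 17 to 21 days. The lowest Nasp and Pole4 values at AL 6 months and the lowest Mcm3 values at CR 16 months are red.

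Ageing of AL mice from 6 to 24 months gave the smallest adjusted p of a member among the 16 contrasts. At an unadjusted p under 0.05 there were 7 members against 16.3% of all genes, 6 of them higher (9.27% of genes) and 1 lower (7.04%), and without female 5 of 6 months there were 4. All genes gave 637, or 373 to 762 when 1 mouse was left out. From 6 to 16 months there were 6 against 10.5% (4 without female 3 and 11 without male 2 of 16 months), and from 16 to 24 months 2 against 1.72%. In the step from 6 to 16 months all genes gave 409, or 193 to 540 when 1 mouse was left out. The median of the 38 differences was -0.0115 z from 6 to 24 months and -0.0402 over all genes. The 7 kinases and their partners had differences from -0.221 to -0.0468 z, with 0 of the 7 at an unadjusted p under 0.05, and 39.6% of all genes had a difference above 0 in this contrast. The 3 Cdc phosphatases and 5 of the 7 licensing genes had one above 0.

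Nasp had the lowest p in this contrast. Its lowest, median and highest values were -1.61, -0.553 and -0.32 at 6 months and -0.53, -0.24 and -0.00586 at 24 months, so that the groups overlapped. The difference was 0.441 ± 0.125 z (95% interval 0.191 to 0.690; adjusted p = 0.145), with 9 of 9 old mice above the median of the young. The 2 lowest mice at 6 months, -1.61 and -1.29, were those whose arrays stand apart, and without the 7 arrays the difference was 0.223. Pole4, the histone-fold partner of Pole3, stood at 0.0472 ± 0.320 (n = 10) and 0.383 ± 0.153 (n = 9), a difference of 0.339 ± 0.106 (adjusted p = 0.145), or 0.173 without those arrays. Pold3 differed by 0.2995 ± 0.0965 (adjusted p = 0.146), or 0.159 without them, and Pold1, the catalytic subunit of polymerase delta, by 0.415 ± 0.162 (adjusted p = 0.206), or 0.185. From 6 to 16 months the same 3 genes, Nasp, Pole4 and Pold3, differed by 0.311, 0.281 and 0.278 (adjusted p from 0.36 to 0.374), or 0.112, 0.131 and 0.151 without those arrays, a contrast that shares the 6 month mice. Cdc27 differed by -0.247 ± 0.103 there (adjusted p = 0.389).

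Rrm1, the large subunit of ribonucleotide reductase, was the 1 of these 7 members that was lower at 24 months. Its lowest, median and highest values were -0.220, 0.105 and 0.32 at 6 months, -0.190, 0.0198 and 0.2997 at 16 months and -0.42, -0.21 and 0.02 at 24 months. The old group reached lower than both others and overlapped them. The difference from 6 to 24 months was -0.264 ± 0.0826 (adjusted p = 0.145), with 0 of 9 old mice above the median at 6 months, and it was -0.253 in early and -0.301 in late arrays alone and -0.224 without the arrays that stand apart. From 16 to 24 months it was -0.205 ± 0.0826 (adjusted p = 1). In CR mice from 6 to 24 months Rrm1 differed by -0.170 ± 0.0888 (adjusted p = 0.772), measured in other animals. Before adulthood Rrm1 showed no such order, at -0.0421 ± 0.241 (n = 5) for 17 to 21 days and -0.130 ± 0.154 (n = 5) for 33 to 44 days. Rrm2, the subunit made in S phase, had a mean difference of 0.103 over its 3 probes from 6 to 24 months, but these gave 0.279, -0.291 and 0.321 (adjusted p = 0.356, 0.164 and 0.307 over the single probes), so that the probes disagreed in sign. Cdc25a, the other gene with 3 probes and a phosphatase that activates kinases, gave 0.397, -0.0287 and -0.134 on its single probes.

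From 16 to 24 months in AL mice Cdk1 and Rrm1 had an unadjusted p under 0.05. The lowest, median and highest values of Cdk1 were 0.91, 1.21 and 1.5 at 16 months and 0.57, 1.07 and 1.14 at 24 months, with 0 of 9 old mice above the younger median. The difference was -0.323 ± 0.120 (adjusted p = 1), -0.295 in early and -0.326 in late arrays alone. After the correction for place described below it was -0.103 ± 0.0552 (adjusted p = 1), that of Rrm1 was -0.126 ± 0.0659, and 0 members had an unadjusted p under 0.05 in this step. The 6 month group lay between, at 1.02 ± 0.326, so that the AL levels of Cdk1 ran 1.30, 1.11, 1.02, 1.25 and 0.938 from youngest to oldest with no steady course. Cdc14b differed by 0.263 ± 0.207 and Ccnd3 by -0.137 ± 0.112 in this step (adjusted p = 1 for both).

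**Figure D4:**
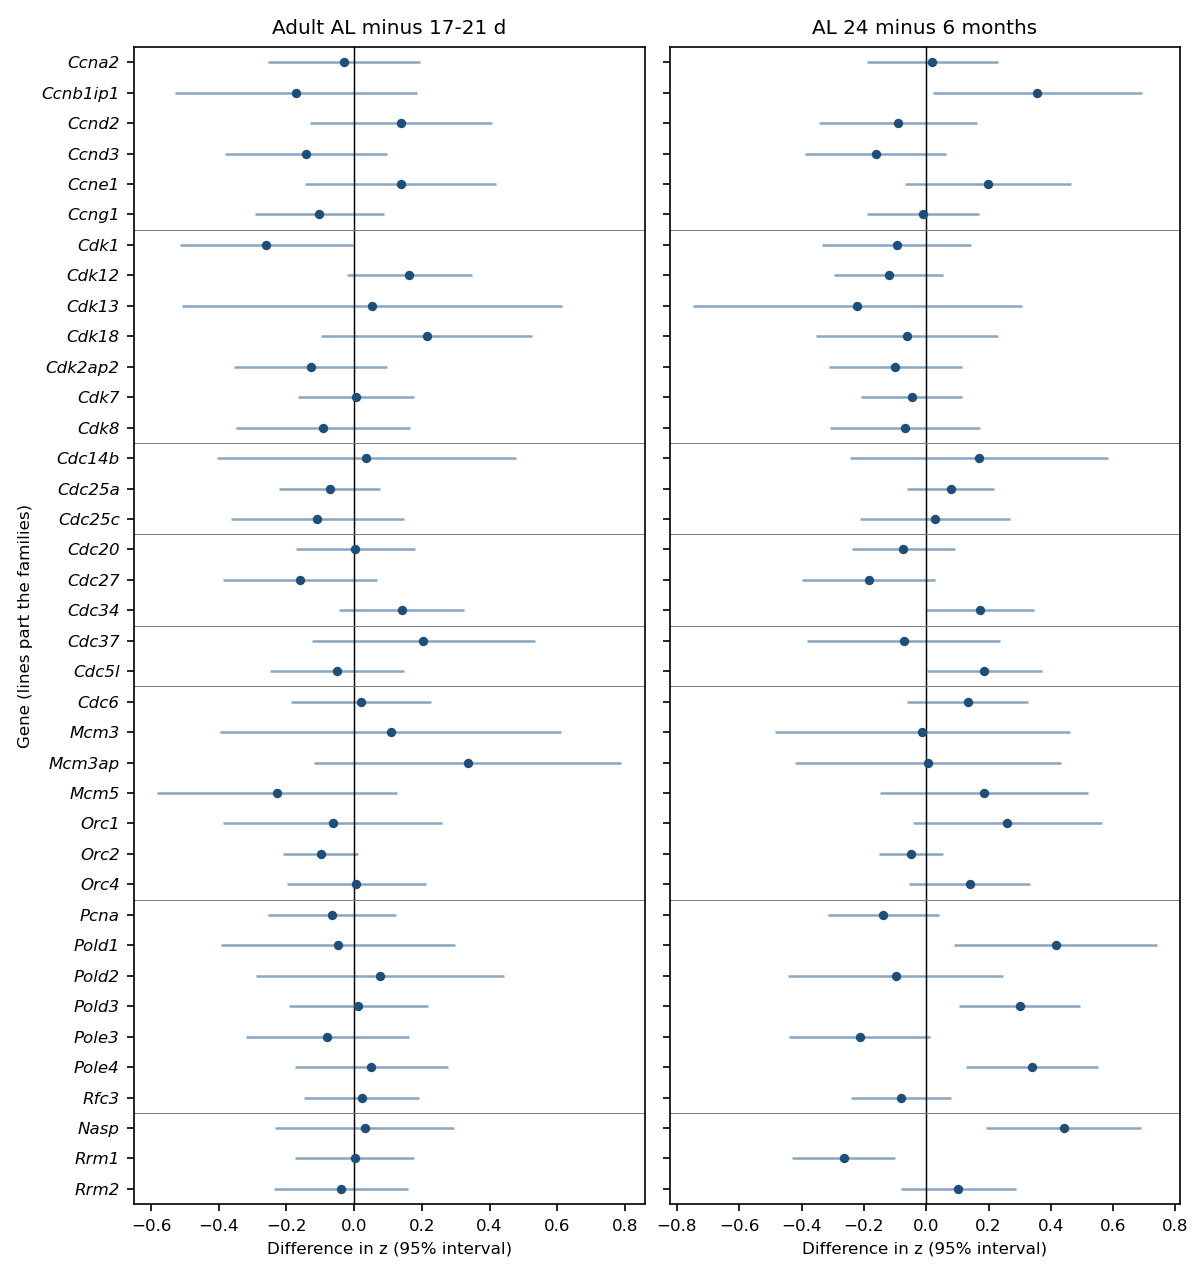
Difference in z with its 95% interval for each of the 38 genes (rows, ordered by family), for AL adults minus 17 to 21 days (left) and AL 24 minus 6 months (right). On the left only the interval of Cdk1 excludes 0, and on the right those of Nasp, Pole4, Pold1, Pold3 and Rrm1 are among those that do, with none past the adjusted threshold.

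Neighbouring probes at the same position of the filter deviated together, so every difference was also computed after taking off, on each array, the median deviation of the same position in zones up to 2 away. This correction also removes any true effect that such neighbours share. After it the differences of 3 genes from 6 to 24 months were within their error of 0, with Pole4 at 0.0110 ± 0.0469, Pold3 at 0.0240 ± 0.0528 and Nasp at 0.0561 ± 0.0596. Rrm1 went from -0.264 to -0.151 ± 0.0659 (adjusted p = 0.999) and was the 1 member with an unadjusted p under 0.05, against 3.76% of all genes. In the development contrasts Cdc27 went from -0.490 to -0.307 ± 0.136 (adjusted p = 0.961) in the first step and from 0.475 to 0.283 ± 0.117 (adjusted p = 1) in the second. Pole3 went from -0.346 to -0.191 ± 0.0602 (adjusted p = 0.749) and from 0.366 to 0.0986 ± 0.0518, and Cdk1 in the adults from -0.259 to -0.0873 ± 0.0587. The 95% interval of a member then extended 0.148 z (median) from its value from 6 to 24 months, and 0 of 38 members and 0% of genes passed in each contrast.

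**Figure D5:**
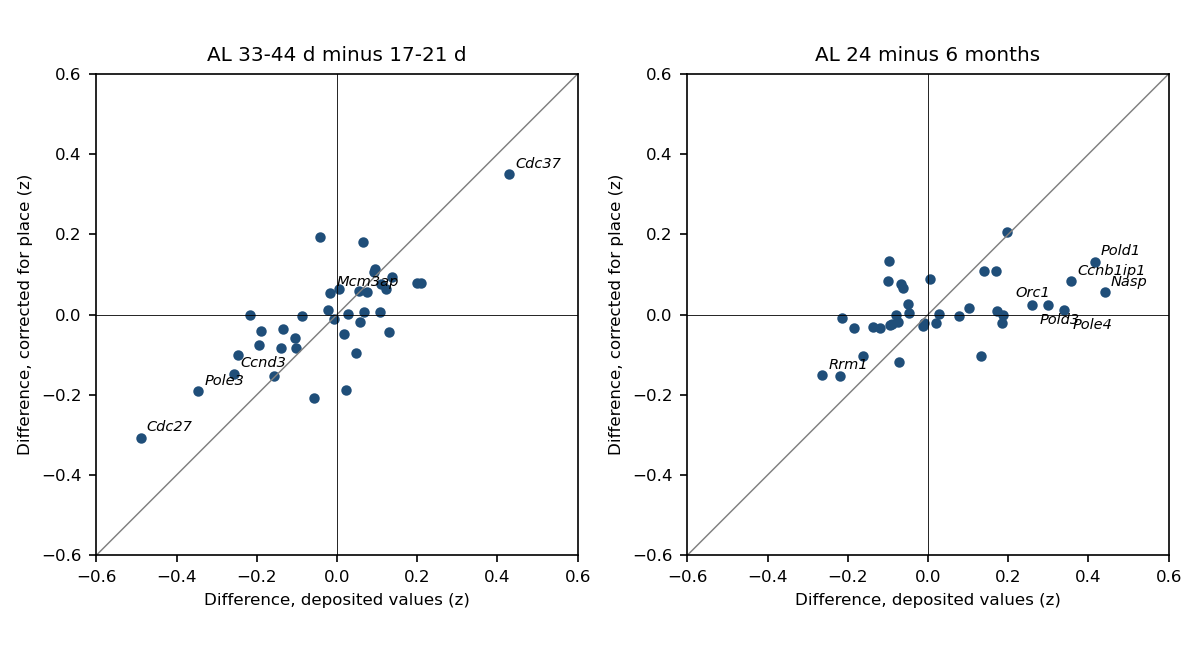
Difference in z of each of the 38 genes from the deposited values (horizontal axis) and after correction for place (vertical axis), for AL 33 to 44 against 17 to 21 days (left) and AL 24 against 6 months (right), with the line of equality. On the left Cdc27 goes from -0.490 to -0.307 and Cdc37 from 0.429 to 0.349, while on the right Nasp, Pole4 and Pold3 drop from 0.441, 0.339 and 0.2995 to below 0.06.

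Under CR no member passed in the ageing contrasts either. At an unadjusted p under 0.05 there were 3 members from 6 to 16 months (7.07% of all genes), 8 from 16 to 24 months (14.8%) and 2 from 6 to 24 months (6.35%). Without male 2 of CR 16 months the 3 became 0, and without female 2 of CR 16 months the 8 became 4. Over all genes these counts were 276 and 579, and ranged from 111 to 358 and from 398 to 699 when 1 mouse was left out. From 6 to 24 months Pole4 differed by 0.278 ± 0.114 (adjusted p = 0.753; 8 of 8 old mice above the younger median) and Nasp by 0.272 ± 0.134 (adjusted p = 0.772), which were 0.178 and 0.128 without the 7 arrays and 0.0323 and 0.114 after the correction for place. From 16 to 24 months Cdk12 gave -0.253, Cdk2ap2, a binding partner of Cdk2, -0.308, Pole3 -0.292 and Orc4 0.258, with adjusted p from 0.213 to 0.25. Without the 7 arrays these were -0.107, -0.252, -0.0863 and 0.118. From 6 to 16 months Mcm3ap gave 0.454 ± 0.212 (adjusted p = 0.628), or 0.179 without those arrays. The test of whether the change from 6 to 24 months differed between the diets called 0 members (0 at an unadjusted p under 0.05, against 1.05% of genes), and the lowest p belonged to Ccnd3 (0.237 ± 0.164, adjusted p = 1; 0.141 without the 7 arrays). The 95% interval of a member extended 0.321 z (median) from its value here, with a range of 0.151 to 0.771 z over the members.

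CR and AL mice were compared at each age and over the 3 ages. At 6 months there were 0 members at an unadjusted p under 0.05 (1.33% of genes), at 16 months 4 (8.73%), at 24 months 0 (1.92%) and over the ages 1 (2.48%). Without female 5 of CR 6 months the first count was 4, without male 2 of AL 24 months the third was 3, and the count at 16 months ranged from 2 (without female 2 of CR 16 months) to 8 (without male 3 of CR 16 months). Over all genes the count of 52 at 6 months ranged from 33 to 216, the highest without the same female 5. At 16 months 341 genes ranged from 157 to 479, and at 24 months 75 ranged from 42 to 136. At 6 months the lowest p belonged to Cdc5l (0.154 ± 0.0923), Cdc25a (0.0999 ± 0.0694), Nasp (0.171 ± 0.124) and Cdc37 (-0.208 ± 0.153), with an adjusted p of 1 for each. Without the 7 arrays these were 0.120, 0.0658, 0.0488 and -0.188. Of the 4 members at 16 months, Mcm3, Pold2 and Orc4 have a probe at position 7 of the filter zones. Mcm3 differed by -0.620 ± 0.228 and Pold2, a subunit of polymerase delta, by -0.468 ± 0.166 (adjusted p = 0.459 for both). Without the 7 arrays the differences of Mcm3 and Pold2 were 0.0223 and -0.0281, and from CR 6 to CR 16 months, where the whole set gave -0.558 and -0.461, they were 0.0471 and 0.00137. Orc4, which shares the position with 1 of its 2 probes, differed by -0.225 ± 0.0932 at 16 months and -0.0753 without the arrays. Over the 3 ages its -0.120 ± 0.0564 (adjusted p = 1) became -0.0742. Cdk12 differed by 0.232 ± 0.0841 at 16 months (adjusted p = 0.459) and by 0.0678 without the arrays.

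At 24 months Ccnd3 differed between CR and AL by 0.225 ± 0.120, Cdk1 by 0.220 ± 0.128, Rfc3 by -0.147 ± 0.0853 and Cdc25a by 0.110 ± 0.0747 (adjusted p = 1 for each), or by 0.152, 0.268, -0.124 and 0.113 without the 7 arrays. Over the ages Cdk8, a kinase of the Mediator complex, gave 0.127 ± 0.0703, Orc1 0.157 ± 0.0883 and Cdc25a 0.0701 ± 0.0407 (adjusted p = 1), or 0.106, 0.0986 and 0.04998 without them. The 95% interval extended 0.128 z (median) from the value of a member in this contrast. Between adult females and males, 1 member had an unadjusted p under 0.05 (1.25% of genes). It was Cdk8, at -1.09 ± 0.275 in 30 females and -1.24 ± 0.276 in 26 males, a difference of 0.155 ± 0.0703 (adjusted p = 1) with 22 of 30 females above the male median. Corrected for place it was 0.167 ± 0.0661, and without the 7 arrays 0.164.

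A looser rule after the first steps of the study's own selection (mean z above 0, z ratio beyond 1.5, unadjusted p under 0.05, with no adjustment for the number of genes) called members in 10 of the 16 contrasts. In AL mice it called 1 from 33 to 44 days to 6 months (2.94% of genes), 1 from 17 to 21 days to 6 months (0.973%), 1 in the mean of the adults (1.2%), 2 from 6 to 16 months (4.02%), 2 from 16 to 24 months (0.435%) and 4 from 6 to 24 months (5.4%). In CR mice it called 1 from 6 to 16 months (1.82%), 2 from 16 to 24 months (2.82%) and 1 from 6 to 24 months (2.07%), and between the diets 1 at 16 months (1.64%). The 4 from 6 to 24 months were Ccnb1ip1, Pold1 and Pole4, higher, and Rrm1, lower.

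Within groups, members were also compared from mouse to mouse. Over the 703 pairs of members the median residual correlation over the 66 arrays was -0.0286, and over all pairs of genes it was -0.00626. The closest pair, Ccnb1ip1 and Pold1, gave 0.89, which fell to 0.442 after the correction for place, and Pold3 and Pole4 gave 0.799, which became -0.00579. All pairs share the same arrays and filter positions. Pairs of probes of 1 gene had a median r of 0.0432 over 14 pairs of members and 0.0524 over 1114 pairs of all genes.

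Other genes of the cell cycle were measured as well. Of 43 listed replication accessory genes (helicase loading, lagging strand, nucleotide and chromatin factors) 22 were measured, of 57 mitosis genes 33 and of 46 cell cycle regulators 17, and none passed in any contrast. From 17 to 21 to 33 to 44 days 11 accessory genes were higher and 11 lower (median 0.00688 z), 18 mitosis genes were higher and 15 lower (0.0108), and 8 regulators were higher and 9 lower (-0.00333). The lowest p in each list belonged to Top1, a topoisomerase (0.249 ± 0.120, adjusted p = 0.842), Nek2, a centrosome kinase (-0.373 ± 0.143, adjusted p = 0.725), and E2f7, a repressor of E2F targets (-0.340 ± 0.125, adjusted p = 0.698). From 17 to 21 days to 6 months 18 accessory genes were higher and 4 lower (median 0.0456, against 0.0244 over all genes), 17 mitosis genes were higher and 16 lower, and 9 regulators were higher and 8 lower. Of all genes 57.5% were higher in this step, and its medians are not given here after the correction for place. Plk4, which starts centriole duplication, gave -0.419 ± 0.191 and Cdkn1b, an inhibitor of cyclin-dependent kinases, -0.344 ± 0.147 (adjusted p = 0.946 for both). From 6 to 24 months in AL mice 4 accessory genes were higher and 18 lower (median -0.0875, or -0.00976 after the correction for place, against -0.0402 over all genes). Of all genes 39.6% were higher in this contrast. It shares the AL 6 month mice with the step from 17 to 21 days to 6 months, and 2 of these mice are on arrays that stand apart.

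Of 9 listed markers of granule cell precursors 0 were among the 3905 genes, and the same held for the lists of Purkinje cells, oligodendrocytes and blood, so levels of these cells cannot be given. The granule neuron gene Cbln1 was measured, at 0.62 to 1.96 set-adjusted z in the 66 mice, with group medians of 1.45 at 17 to 21 days and 1.68 at 6 months in AL mice. The mean of 5 measured genes of immature neurons (Tubb3, Tubb2b, Marcks, Marcksl1 and Nnat) had medians of 0.135 and 0.193 in these groups, with ranges of -0.255 to 0.336 and -0.064 to 0.423.

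Single genes stood for most other cell types. At 17 to 21 days, 33 to 44 days and 6 months of AL mice the medians of Glul, an enzyme of astrocytes, were -0.476, -0.63 and -0.346, those of Pdgfra in oligodendrocyte precursors -1.07, -1.0 and -1.15, and those of Lyz2 in macrophages 1.01, 1.11 and 1.16. The mean of 3 endothelial genes had medians of 0.290, 0.401 and 0.388, and Igf2 of the meninges -0.424, -0.63 and -0.435. Ttr, made in the choroid plexus, had medians of 0.67, 0.0607 and 0.805, with ranges of -0.709 to 1.2, -0.63 to 0.581 and -0.579 to 1.29, so that its median was lowest at 33 to 44 days, where the means of Cdc27 and Pole3 were also lowest. The differences of Ttr were -0.563 ± 0.354 (adjusted p = 0.899) and 0.638 ± 0.304 (adjusted p = 0.43) in these steps, and those of Glul -0.0658 ± 0.141 (adjusted p = 0.99) and 0.287 ± 0.122 (adjusted p = 0.4). The part of these cell types in the values of Cdc27 and Pole3 was not tested.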

How the data were processed

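The values were z scores as deposited by the authors: 33P-labelled cDNA, per the labels, was hybridised to mouse cDNA filters, images were read with ArrayPro, and each array was transformed to mean 0 and SD 1 over 8448 probes, so that a value is a score relative to its own array. Whether a logarithm came first is not stated in the sources used here, so no fold changes are given. No array was removed, and the number of arrays limits the precision.

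Probes of a gene were averaged (28 members with 1 probe, 8 with 2, 2 with 3). For the 3905 genes, limma 3.58.1 (R 4.3.3) estimated 1 mean for each of 16 groups of diet, sex and age (2 to 5 mice each), a term for the array set, 49 residual degrees of freedom, equal weight of the sexes, and Benjamini-Hochberg adjustment over all genes within each of 16 comparisons (threshold 0.05). Values are mean ± SD, differences ± SE. For each comparison the 4 members with the smallest p were named, with all Mcm, Orc, Rfc, Rrm, Pcna, Nasp and D-type cyclin genes, the genes with 3 probes, and from 3 other lists those with the smallest p in 2 comparisons of young mice, of which the first are given. Pold1, Cdc20, Cdc34 and Ccna2 were named beside them after their values were seen. The main differences of some of the 4 members are not printed. For the sexes and the difference between the diets only that of the first is given. The members, lists and comparisons were chosen with earlier results of these data known. The z ratio rule follows the first steps of the study's selection: mean z above 0, z ratio beyond 1.5 and unadjusted p under 0.05.

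Alternatives were no set term, each set alone, correction for place, leaving out the 7 arrays (median correlation under 0.9) or each mouse, genes with a mean z above 0, the median of probes, all probes tested singly, quantile normalization, a block by round of the running number, trend and robust moderation, array weights and the z ratio rule. Scripts were tested on simulated data. Promoters came from a RefSeq table (GRCm38.p6). Figures used Python 3.11.15, pandas 2.3.3 and matplotlib 3.10.9.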

Additional observations from a re-analysis of the deposited data

Results flagged for a closer look

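Among the 8 groups of diet and age and the 38 members, 304 sets of values were checked for a mouse far from the others of its group, and 50 (16.4%) held one, where chance gives about 1 in 20. Of the 50, 33 fell on 4 of the 7 arrays that stand apart. Values are set-adjusted z.

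Male 5 of CR 16 months held 13: Ccnb1ip1 at -0.26, Ccnd3 at 0.39, Cdc37 at -0.75, Cdk1 at 0.09, Cdk7 at -0.33, Cdk8 at -0.37, Mcm5 at -0.88, Nasp at -1.08, Pcna at 1.08, Pold1 at -0.73, Pold3 at -1.125, Pole3 at 0.96 and Rrm2 at -0.0733. Female 5 of CR 6 months held 10: Ccnb1ip1 at 0.29, Cdc34 at -0.93, Cdc5l at -0.435, Mcm5 at -1.45, Nasp at -1.17, Pold1 at -0.64, Pold3 at -1.24, Pole4 at -0.3, Rfc3 at 0.31 and Rrm2 at -0.0433. Female 2 of CR 24 months held 8: Ccnb1ip1 at 0.07, Ccng1 at -1.035, Cdc25c at -0.95, Cdc5l at -0.405, Nasp at 0.29, Orc1 at 0.41, Pold1 at 0.03 and Pole3 at -0.74. Male 2 of CR 16 months held Ccnd2 at -2.486 and Pold2 at -2.375, both at position 7 of the filter zones. Ccnb1ip1, Mcm5, Nasp, Pold1, Pold3 and Rrm2 were low on both male 5 of CR 16 months and female 5 of CR 6 months. The arrays of these mice had consecutive running numbers with those of male 5 and female 5 of AL 6 months, which also stand apart. A shared fault of the arrays and a trait of the mice cannot be told apart here.

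The other 17 fell on other arrays. In young AL mice they were Cdc34 at -0.68 in male 1 and Mcm3ap at -1.19 and Pole4 at 0.3 in male 2 of 17 to 21 days, Pold2 at 0.2854 in male 1, Cdc6 at -1.19 in male 2, Cdc20 at -0.34 and Rfc3 at -0.3 in male 3, Orc4 at -0.96 in female 1 and Orc2 at 0.335 in female 2 of 33 to 44 days. In AL mice of 16 months female 2 held Orc1 at -1.962 and Pole3 at 0.4555. In CR mice they were Ccnd3 at -0.96 and Orc2 at -0.065 in female 3 of 6 months, Cdc6 at -1.35 in female 3 and Orc2 at -0.02 and Rrm1 at -0.4 in female 5 of 16 months, and Cdk8 at -0.6465 in female 1 of 24 months.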

How the results depend on the processing

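The count of members past an adjusted p of 0.05 stayed at 0 in all 16 comparisons under every alternative but the z ratio rule, which has no adjustment and called 1 member from 33 to 44 days to 6 months (Pole4 lower), 1 from 17 to 21 days to 6 months and 1 in the mean of the adults (Cdk1 lower), 2 from 6 to 16 months in AL mice (Pold1 and Pole4 higher), 2 from 16 to 24 months (Cdk1 and Rrm1 lower) and 4 from 6 to 24 months (Ccnb1ip1, Pold1 and Pole4 higher, Rrm1 lower). In CR mice the rule called 1 from 6 to 16 months (Mcm3 lower), 2 from 16 to 24 months (Mcm3 higher, Pole3 lower) and 1 from 6 to 24 months (Pole4 higher), and it called 1 for CR against AL at 16 months (Mcm3 lower). Over all genes some did pass in other settings. Array weights called 8 from 16 to 24 months in CR mice, with a smallest adjusted p of a member of 0.0933, and 4 for CR against AL at 16 months. The correction for place without the arrays that stand apart called 1 gene in some contrasts, such as 16 to 24 months in AL mice.

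Signs of single differences turned as follows, and none of these differences had passed in any setting with adjustment. In arrays 1 to 24 alone Ccnd3 gave 0.023 from 17 to 21 to 33 to 44 days, Pole3 -0.019 from 33 to 44 days to 6 months, Cdk1 0.047 and Ccnb1ip1 0.018 from 17 to 21 days to 6 months, Cdk1 0.0187 in the mean of the adults, Cdc14b -0.115 from 16 to 24 months in AL mice, Cdk2ap2 0.0175 from 16 to 24 months in CR mice, Cdc25a -0.0025 and Cdc37 0.128 for CR against AL at 6 months, Ccnb1ip1 0.011 between the sexes and Ccnd3 -0.13 for the difference between the diets. Corrected for place, Pole4 gave -0.00432 from 6 to 16 months in AL mice and Pole3 0.0197 from 6 to 24 months in CR mice. Without the 7 arrays, Pold2 gave 0.00137 and Mcm3 0.0471 from 6 to 16 months in CR mice and Mcm3 0.0223 for CR against AL at 16 months. With both of these together, a setting chosen after seeing the data, Mcm3 gave 0.0383 and Cdk12 -0.0565 from 6 to 16 months in CR mice, Cdk12 0.0428 from 16 to 24 months, Pole3 0.0235 from 6 to 24 months and Mcm3 0.011 for CR against AL at 16 months. Among arrays 1 to 24 the mice of 17 to 21 days were both female and those of 33 to 44 days both male. The cause of the turned signs was not tested.

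Leaving out 1 mouse at a time never gave a member past the threshold. The count at an unadjusted p under 0.05 went from 7 to 1 in the step from 33 to 44 days to 6 months without female 2 of 33 to 44 days, and from 3 in CR mice from 6 to 16 months to 0 without male 2 of CR 16 months and to 5 without female 5 of CR 6 months. From 17 to 21 to 33 to 44 days the count of 2 became 1 without female 2 of 17 to 21 days and 3 without male 1 of 33 to 44 days, and for the diets over all ages the count of 1 became 0 without male 1 and 3 without male 4 of AL 6 months. The counts for the adults against 17 to 21 days (1), for 6 to 24 months in CR mice (2) and for the sexes (1) moved by at most 1. Counts over all genes moved too. From 33 to 44 days to 6 months 423 ranged from 199 to 511, and from 17 to 21 to 33 to 44 days 222 ranged from 113 to 291. From 6 to 16 months in CR mice 276 ranged from 111 to 358, and for the diets over all ages 97 ranged from 69 to 136. The labels carry no replicate numbers that pair mice. The running numbers went through the groups in 5 rounds, which the labels do not call a batch, and residuals of arrays of 1 set had a median correlation of 0.0771 within and -0.0571 between rounds. With a replicate block by round, a setting chosen after seeing the data, 0 members passed in each of the 16 comparisons, no named difference turned its sign, and the counts at an unadjusted p under 0.05 went from 6 to 10 from 6 to 16 months in AL mice, from 8 to 5 from 16 to 24 months in CR mice, from 2 to 0 from 17 to 21 days to 6 months and from 1 to 0 in the mean of the adults, where Cdk1 gave -0.190, and moved by at most 1 elsewhere. The setting with rounds is given for members only, without the counts over all genes. With 5 mice in each young group, the 95% interval of a typical member extended 0.306 z from its value.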

Other observations

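Members with and without an E2F motif in the promoter window are set side by side here as a description, with no test. The 10 carriers (Cdc25a, Cdc6, Cdk1, Mcm3, Mcm5, Orc1, Pold1, Pold3, Pole4 and Rfc3) had a median difference of -0.168 z from 17 to 21 days to 6 months in AL mice, 8 of 10 being lower, and the 25 other members with a window had 0.0102. From 6 to 16 months the carriers had 0.236, 9 of 10 being higher, and the others -0.030. From 33 to 44 days to 6 months they had -0.165, 8 of 10 being lower, and the others 0.0439, and from 6 to 24 months 0.159, 7 of 10 being higher, and the others -0.0613. In the mean of all AL adults against 17 to 21 days the carriers had -0.0172 (5 higher, 5 lower) and the others 0.0037. For CR against AL at 6 months the carriers had 0.12, 9 of 10 being higher, and the others -0.026. In the order given, 57.5%, 41.3%, 54.1%, 39.6%, 53.7% and 45.9% of all genes were higher in these contrasts. All of these contrasts share the AL 6 month mice, of which 2 are on arrays that stand apart. In contrasts without these mice, the carriers had -0.00222 from 17 to 21 to 33 to 44 days (5 higher, 5 lower; others -0.0075), -0.00894 from 16 to 24 months in AL mice (5 higher, 5 lower; others 0.016) and 0.0149 from 6 to 16 months in CR mice (6 higher, 4 lower; others 0.0316). In CR mice they had 0.0806 from 16 to 24 months, 9 of 10 being higher (others -0.0709), and 0.100 from 6 to 24 months, 7 of 10 being higher (others -0.0621), and for CR against AL -0.0345 at 16 months, 7 of 10 being lower (others 0.064), and 0.0396 at 24 months, 6 of 10 being higher (others -0.0214). In the order given, 51.7%, 45.9%, 54.1%, 48.5%, 47.5%, 51.9% and 51.5% of all genes were higher in these contrasts without the AL 6 month mice. Each CR group holds arrays that stand apart. The medians of the carriers are given for the deposited values only, without the correction for place. Under that correction the residual correlation of the carriers Pold3 and Pole4 went from 0.799 to -0.00579, and their differences from 6 to 24 months in AL mice shrank.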
